A study of Mus musculus with 8 samples.

Results

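Voltage-gated calcium channels open on depolarization and let calcium into the cell, where it drives transmitter release, dendritic spiking and gene expression. Each channel is built around a pore-forming alpha1 subunit, and the alpha1 genes fall into L-type channels (Cacna1c and Cacna1d, long-lasting currents in somata and dendrites), the presynaptic P/Q-, N- and R-type channels (Cacna1a, Cacna1b and Cacna1e) and the low-threshold T-type channels that support burst firing (Cacna1g, Cacna1h and Cacna1i). The alpha2delta subunit encoded by Cacna2d1 helps to traffic channels to the membrane, and Cacng3 is a member of the gamma family whose protein is best known as an auxiliary subunit of AMPA receptors. These 10 genes, chosen by symbol, were all found among the 31053 genes of the count matrices. They were described over annotated cells of the medial prefrontal cortex (PFC) and the striatum of mice, by cell type, excitatory subtype, tissue and genotype.

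Single cells from male C57BL/6N mice, given as 8 to 10 weeks old in the labels and as somewhat older in the study's methods, were profiled by droplet-based 3' RNA sequencing with unique molecular identifiers (UMIs). The 4 groups were wild type (WT) PFC, Setd1a+/- PFC, WT striatum and Setd1a+/- striatum, with 2 libraries each, and every library pooled tissue from 2 mice. Setd1a+/- mice carry a germline heterozygous mutation of the histone H3K4 methyltransferase gene Setd1a, in all cells, and the WT mice are their littermates. For the striatal libraries the labels give the nucleus accumbens, whereas the study's results text describes dorsal and ventral striatum.

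The submitters' annotation covered 8997 PFC cells in 8 cell types and 14690 striatal cells in 10 cell types, with 2302.5 to 3042 UMIs per cell as the median of a library and 15154268 to 26277553 UMIs per count matrix. The labelled cell types were checked against 41 markers in PFC, all of which were highest in their own type, and against 48 in striatum, of which 45 were. The exceptions were Gad2, Slc32a1 and Pvalb of striatal interneurons (IN). In that cluster the 5 excitatory markers summed to 315.3 to 481.0 CPM per library (the UMIs of a gene per 1000000 UMIs of the summed cells), against 964.1 to 1211 CPM in PFC excitatory neurons (EN) and 0 to 31.9 CPM in PFC IN. Of the 821 striatal IN, 155 (18.9%) held a UMI of an excitatory marker and none of Gad1, Gad2 or Slc32a1, and 0 of the 298 PFC IN did so. Values of named genes that rest on striatal IN are therefore given also for the 607 striatal and 269 PFC IN that held a GABA marker and no excitatory marker, a choice made after seeing the data. Any pair of libraries shared 1 to 24 cell barcodes, at most 0.877% of the cells of the smaller library. For the targeted gene, Setd1a, summed over all cells, WT libraries had 8.45 and 11.2 CPM in PFC and 13.4 and 15.2 CPM in striatum, and Setd1a+/- libraries had 5.59 and 9.33 CPM in PFC and 9.16 and 12.5 CPM in striatum. The 3' reads lie outside the mutated stretch and do not check the genotype labels.

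The 10 members gave 437 UMIs (Cacna1g) to 7600 UMIs (Cacna2d1) over all annotated cells. In GRCm38 (mm10) they lie on 10 chromosomes. Cacna2d1 spans 15934691 to 16374511 on the plus strand of chromosome 5, Cacng3 spans 122670492 to 122769393 on the plus strand of chromosome 7, and Cacna1e spans 154390731 to 154884501 on the minus strand of chromosome 1. The other presynaptic-type genes are Cacna1a (chromosome 8, 84388440 to 84640246, plus strand) and Cacna1b (chromosome 2, 24603887 to 24763152, minus strand). The L-type genes are Cacna1c (chromosome 6, 118587240 to 119196418, minus strand) and Cacna1d (chromosome 14, 30039939 to 30491455, minus strand). The T-type genes are Cacna1g (chromosome 11, 94408391 to 94474198, minus strand), Cacna1h (chromosome 17, 25374285 to 25433783, minus strand) and Cacna1i (chromosome 15, 80287238 to 80398279, plus strand). No other annotated gene shares exon bases with a member on the same strand, and on the opposite strand Gm16183 does so with Cacna1a, Chdh with Cacna1d and Tpsg1 with Cacna1h.

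To see which cells use which subunits, the UMIs of all cells of a type were added up within a library and expressed as CPM. Levels of one gene can be compared between cell types on this scale, but not levels of different genes. In PFC, 9 of the 10 members had their highest mean in EN, and Cacna1h was highest in oligodendrocyte precursor cells (OPC), at 6.32 ± 0.91 CPM (SD, n = 4 libraries) against 5.36 ± 1.56 CPM in EN with overlapping ranges. In striatum, the highest mean of each of the 10 genes was in the D1 or D2 medium spiny neurons (MSN) or the IN. Cacna1h was at 17.5 CPM in D1 MSN and 15.5 CPM (0 to 45.9 CPM, 4 UMIs) in newly formed oligodendrocytes. Ranges also overlapped for Cacna1g (IN and OPC), Cacna1c (D1 MSN and OPC), Cacna1i (D2 MSN and newly formed oligodendrocytes) and Cacna2d1 (IN and microglia). For Cacna1d there was a near tie. Cacna1d was at 14.9 ± 4.02 CPM in IN and 14.4 ± 5.36 CPM in astrocytes (27 UMIs), with overlapping ranges, and at 10.8 CPM in D2 MSN, 9.24 CPM in D1 MSN, 9.23 CPM in OPC and 9.15 CPM in microglia. In the striatal IN with a GABA marker and no excitatory marker its mean was 12.1 CPM, below the 14.4 CPM of astrocytes. The order depended on the measure. As means over cells of their own CPM, all IN were at 13.3 CPM and astrocytes at 8.95 CPM. The free RNA of the striatum held 9.79 to 16.5 CPM of Cacna1d, and its part in these levels was not tested. The plot of mean levels over 18 tissue and cell type combinations shows the levels of all 10 genes.

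**Figure D1:**
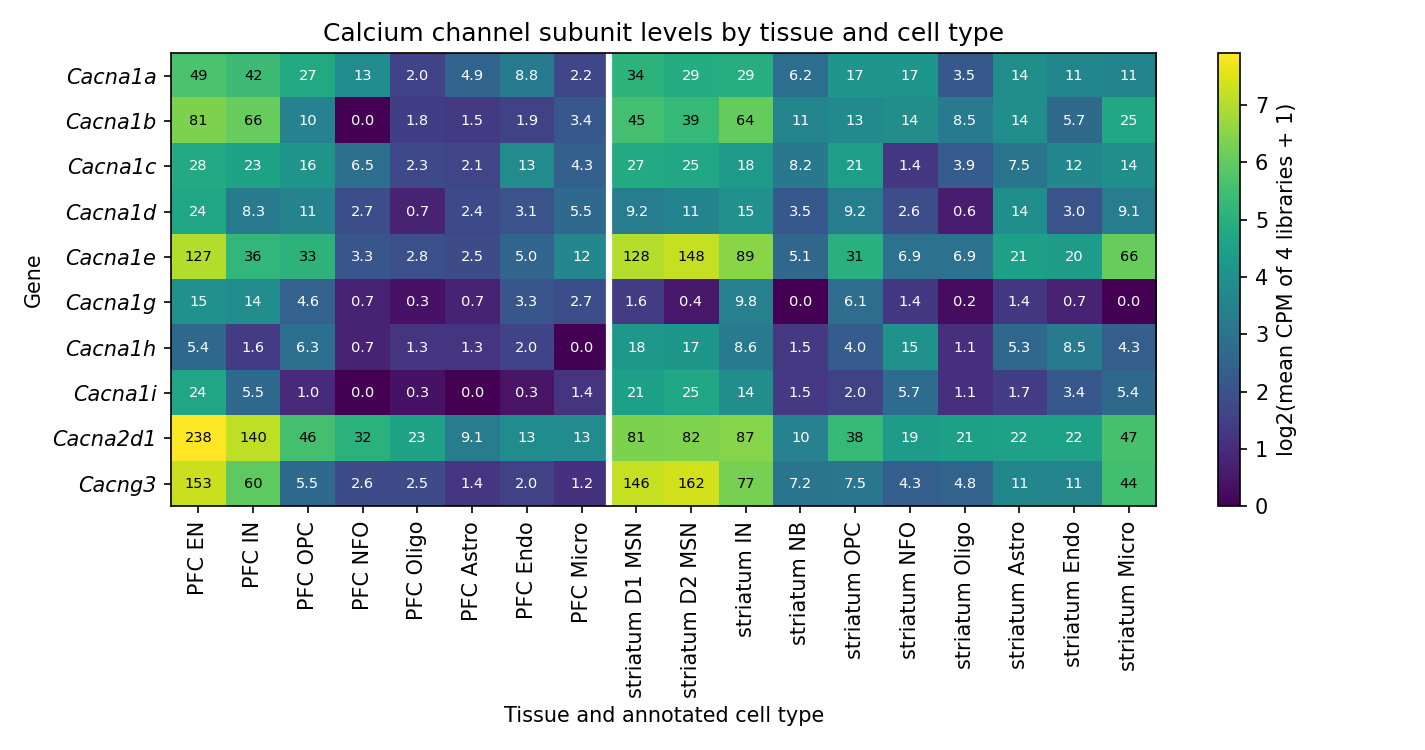
Mean CPM over 4 libraries (numbers in the cells) of each subunit gene (rows) in each annotated cell type of PFC and striatum (columns); the color gives log2(mean CPM + 1). Neuron columns carry the highest mean of each gene except Cacna1h in PFC, for example 238 CPM of Cacna2d1 in PFC EN, and OPC and striatal microglia hold intermediate values of Cacna1e.

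Among the presynaptic-type alpha1 genes, Cacna1e (R-type) was far higher in EN than in any other PFC type. Its level in EN was 117.6 and 120.6 CPM in the Setd1a+/- libraries and 144.9 and 126.3 CPM in the WT libraries, and in IN it was 31.1, 33.1, 42.9 and 37.8 CPM in the same order. All EN libraries were above all IN libraries. Cacna1b (N-type) stood at 80.7 ± 5.89 CPM in EN and 66.1 ± 19.0 CPM in IN, and Cacna1a (P/Q-type) at 49.3 ± 3.78 CPM in EN and 41.8 ± 20.2 CPM in IN; for both genes the ranges of the 4 libraries overlapped between the neuron classes. Cacna1a also reached 26.9 ± 11.7 CPM in OPC, whose range overlapped that of IN.

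Of the L-type genes, Cacna1c was at 27.6 ± 4.53 CPM in EN, 23.2 ± 4.47 CPM in IN, 16.2 ± 3.66 CPM in OPC and 13.0 ± 3.75 CPM in endothelial cells, and each of these ranges overlapped the next. Cacna1d was at 24.0 ± 1.18 CPM in EN, above the whole range of OPC (10.6 ± 4.42 CPM) and of IN (8.35 ± 2.59 CPM), and at 3.06 ± 1.63 CPM in endothelial cells.

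For the auxiliary genes, Cacna2d1 was at 238.3 ± 21.2 CPM in EN, 140.1 ± 31.4 CPM in IN and 46.3 ± 7.88 CPM in OPC, 3 ranges without overlap. A Cacna2d1 UMI was seen in 68.8% of EN and 1.99% of astrocytes, and in 19.7% of EN and 0.722% of astrocytes after thinning each cell to 1000 UMIs (median UMIs per cell in a library, 5732 to 9178 in EN and 1744 to 2129 in astrocytes). Cacng3 was at 152.9 ± 25.0 CPM in EN and 59.9 ± 22.2 CPM in IN, again without overlap, and at a mean of 5.47 CPM or less in every other PFC type.

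Cell type differences were read as descriptions, without a test, because the cells had been clustered on these same counts. A gene was counted as different where its mean log2 ratio reached 2-fold and all 4 libraries pointed the same way. Between EN and IN of the PFC, 4 of 10 members were higher in EN, against 13.8% of 13115 genes, and 0 were lower, against 5.44%. They were Cacna1e (log2 ratio 1.79 ± 0.08, SD, n = 4), Cacna1d (1.46 ± 0.44), Cacng3 (1.41 ± 0.54) and Cacna1i (2.45 ± 1.84), the last with 10 UMIs in IN. The median log2 ratio of the members was 1.10 against 0.14 over all genes compared. Of the other subunits of the same channels, 1 of 13 compared was higher and 4 were lower in EN. Among the latter, Cacna2d2 was at 6.57 CPM in EN and 61.2 CPM in IN, and Cacna2d3 at 21.7 and 53.7 CPM. Both encode alpha2delta paralogs of Cacna2d1. Cacng2, a gamma subunit gene that did not pass the rule, was at 58.6 CPM in EN and 108.9 CPM in IN. The beta subunit gene Cacnb4 was at 344.4 CPM in EN and 278.4 CPM in IN.

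OPC are the dividing precursors of myelinating oligodendrocytes. In PFC, 6 of 7 members compared were higher in OPC than in oligodendrocytes (32.4% of 10953 genes), 5 of them pore-forming genes and the other Cacng3. The median log2 ratio of the 7 was 2.46. In PFC oligodendrocytes the 5 pore-forming genes rested on 4 to 12 UMIs each. Single log2 ratios were 3.38 for Cacna1e (33.4 against 2.82 CPM), 3.34 for Cacna1a (26.9 against 2.00 CPM), 2.79 for Cacna1d (10.6 against 0.743 CPM), 2.46 for Cacna1c (16.2 against 2.34 CPM), 1.97 for Cacna1b (10.4 against 1.78 CPM) and 1.21 for Cacng3 (5.47 against 2.51 CPM, from 14 and 8 UMIs). In striatum, 3 of 8 were higher (30.2% of 11224 genes), with a median log2 ratio of 1.502 over the 8. The 3 were Cacna1c, Cacna1d and Cacna1e, the last at 31.3 ± 0.70 CPM in OPC and 6.89 ± 4.70 CPM in oligodendrocytes. In striatal oligodendrocytes they rested on 8, 4 and 25 UMIs. The striatal share is close to that of all genes, and over all genes the median log2 ratio lay toward OPC, at 0.60 in PFC and 0.62 in striatum. The free RNA of the PFC held 46.4 to 69.6 CPM of Cacna1e, 26.4 to 43.1 CPM of Cacna1b, 12.8 to 17.9 CPM of Cacna1d and 44.0 to 93.5 CPM of Cacng3, ranges that lay above the OPC means. It held 21.8 to 30.1 CPM of Cacna1a and 12.6 to 18.1 CPM of Cacna1c, ranges that included them. That of the striatum held 88.1 to 117.5 CPM of Cacna1e, 22.9 to 26.4 CPM of Cacna1c and 9.79 to 16.5 CPM of Cacna1d. These ranges lay above the striatal OPC means. The part of free RNA in the OPC levels was not tested. The gamma subunit gene Cacng4 was at 478.2 CPM in OPC and 3.81 CPM in oligodendrocytes of the PFC, and at 398.2 and 4.02 CPM in striatum.

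Turning to the striatum, the MSN, the projection neurons that make up most striatal neurons, resembled PFC EN in some members and not in others. D1 and D2 MSN, which send axons to different output nuclei, differed in 0 of 10 members by the same rule, against 2.23% of 12758 genes. Cacna1e was at 124.9, 119.7, 136.7 and 130.2 CPM in D1 MSN and 166.4, 142.0, 134.4 and 147.8 CPM in D2 MSN (both Setd1a+/- libraries before both WT libraries), and the ranges overlapped. Of the other subunits, Cacna2d2 was at 31.4 CPM in D1 MSN and 71.2 CPM in D2 MSN and was the only one of 12 compared that passed the rule.

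**Figure D2:**
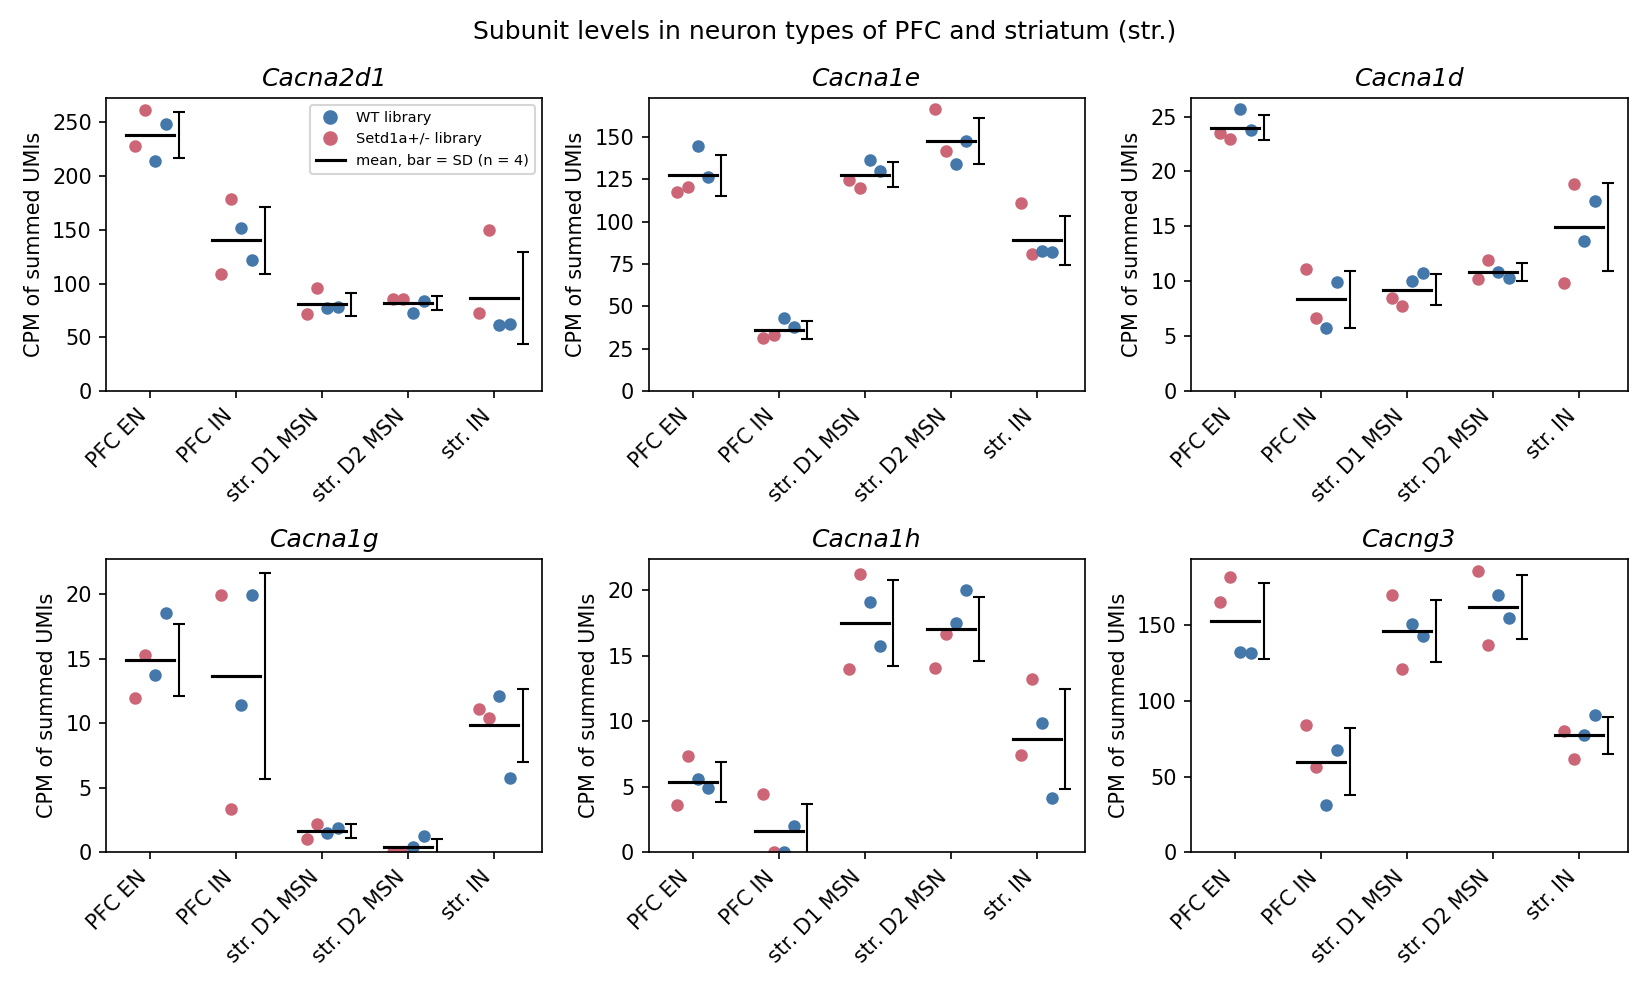
CPM of summed UMIs (vertical axes) of 6 subunit genes in the 5 neuron types of PFC and striatum; points are libraries colored by genotype, the black line is the mean and the bar the SD of 4 libraries. Cacna1g is near 0 in both MSN types, Cacna1h is higher in MSN than in PFC EN, and Cacna2d1 is highest in PFC EN.

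Compared with PFC EN over 4 libraries each, the MSN (D1 and D2 summed) differed at least 2-fold without overlap in 4 members, a comparison chosen after the values were seen. Higher in EN were 3 members (13.4% of 14220 genes), Cacna2d1 (238.3 against 81.0 CPM), Cacna1d (24.0 against 9.89 CPM) and Cacna1g (14.9 against 1.14 CPM). Lower in EN was 1 member (7.81% of genes), Cacna1h, with 3.64 to 7.38 CPM in EN and 14.0 to 19.4 CPM in MSN. Cacna1a (46.2 to 54.5 against 24.2 to 45.1 CPM) and Cacna1b (74.4 to 87.7 against 39.0 to 46.2 CPM) were higher in EN without overlap but by less than 2-fold, and Cacna1e, Cacng3, Cacna1c and Cacna1i overlapped between the neuron types of the different tissues. Cell type, tissue and dissection cannot be told apart here. The third T-type gene, Cacna1i, was at 24.1 ± 5.39 CPM in EN, 21.0 ± 4.00 CPM in D1 MSN and 25.1 ± 3.70 CPM in D2 MSN. Barcodes with 1 to 100 UMIs, a measure of free RNA, held as much of these genes as the neurons or more in several cases. In striatum they held 1.78 to 3.60 CPM of Cacna1g, 19.0 to 34.1 CPM of Cacna1h (MSN, 14.0 to 19.4 CPM) and 27.2 to 34.9 CPM of Cacna1i (MSN, 19.2 to 26.8 CPM). In PFC they held 4.97 to 6.96 CPM of Cacna1h, about the level in EN. Oligodendrocytes of the striatum, measured in the same libraries, were at 0.212 ± 0.42 CPM of Cacna1g, 1.14 ± 0.78 CPM of Cacna1h and 1.12 ± 0.80 CPM of Cacna1i. The part of free RNA in the neuronal levels was not tested.

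Within the striatum, MSN against IN gave 1 member higher in MSN (6.64% of 13337 genes), Cacna1h at 17.3 against 8.64 CPM, and 1 lower (9.84%), Cacna1g at 1.14 against 9.83 CPM. Against the IN with a GABA marker and no excitatory marker, Cacna1g stayed lower in MSN (log2 ratio −2.16), Cacna1h no longer passed the rule (0.90), and Cacna1e (1.32), Cacng3 (1.19) and Cacna2d1 (1.09) were higher in MSN. Of all genes, 9.12% were higher and 8.96% lower in MSN in that comparison. IN with an excitatory marker only held 169.8 ± 46.5 CPM of Cacna1e and 180.7 ± 70.9 CPM of Cacna2d1, and those with a GABA marker only held 54.6 ± 11.3 and 40.5 ± 19.5 CPM.

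The 7 excitatory subtypes of the PFC are named by layer group (SL for superficial, DL for deep) and a marker gene. They differed in the levels of several members, among them Cacna1g, Cacna1h and Cacng3. The T-type gene Cacna1g was at 24.5, 26.0, 25.1 and 25.6 CPM in SL-Cux2 (both Setd1a+/- libraries before both WT libraries). In DL-Foxp2, the subtype marked by a transcription factor gene of deep-layer corticothalamic neurons, it was at 0.794, 2.57, 1.94 and 1.57 CPM. Only 7 Cacna1g UMIs were counted in 743 DL-Foxp2 cells, and 0.942% of these cells had one, compared with 15.2% of SL-Cux2 cells. DL-Foxp2 lay below every library of SL-Myh7 (9.36 ± 2.29 CPM), the next lowest subtype, and below the free RNA of the PFC (8.03 to 17.0 CPM).

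**Figure D3:**
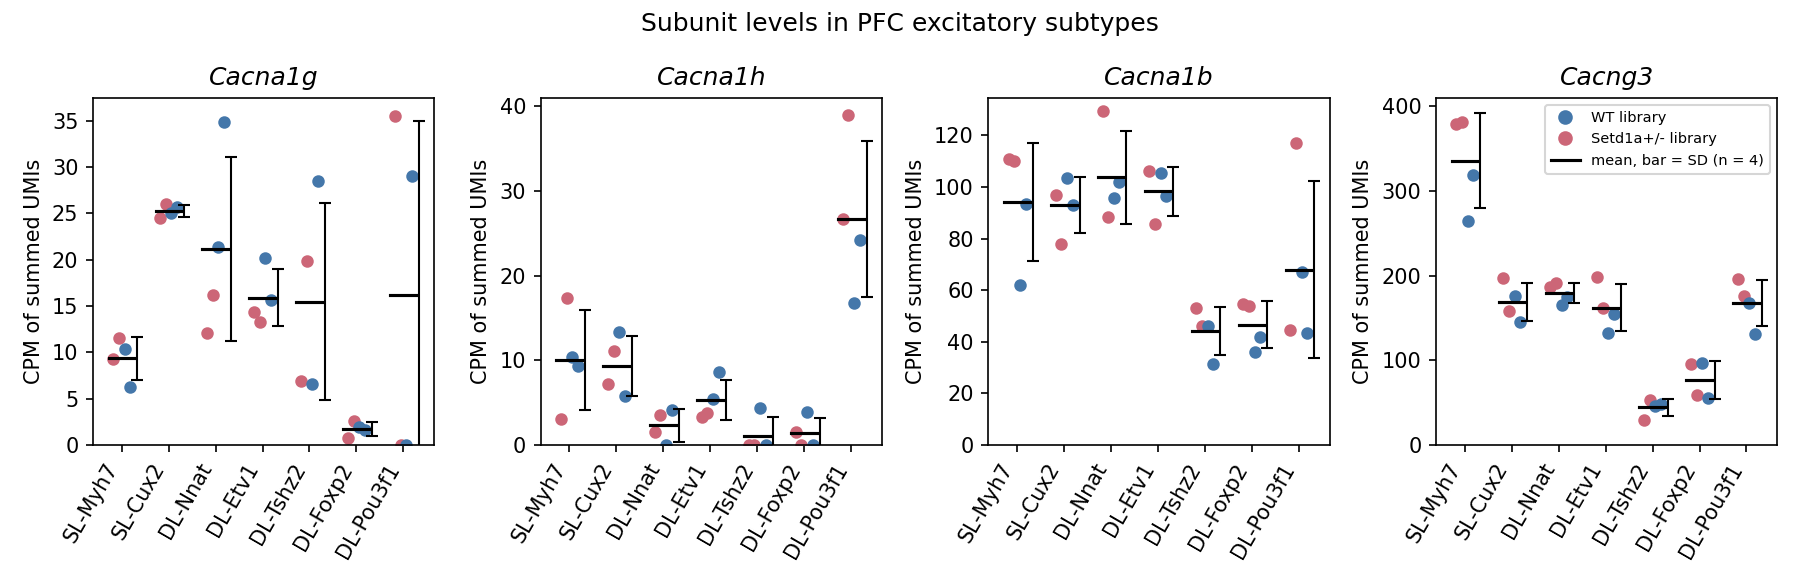
CPM of summed UMIs (vertical axes) of Cacna1g, Cacna1h, Cacna1b and Cacng3 in the 7 PFC excitatory subtypes; points are libraries colored by genotype, the black line is the mean and the bar the SD of 4 libraries. DL-Foxp2 is lowest for Cacna1g, DL-Foxp2 and DL-Tshz2 are low for Cacna1b and Cacng3, and DL-Pou3f1, with 62 cells in all, is highest for Cacna1h.

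Against DL-Foxp2, SL-Cux2 was higher in 3 of 10 members (7.84% of 11465 genes), Cacna1g (log2 ratio 3.32 ± 0.39), Cacna1h (2.39 ± 0.97) and Cacng3 (1.17 ± 0.26), and DL-Etv1 was higher in 4 (6.79% of 11451 genes), the same 3 and Cacna1b (1.08 ± 0.37). In both pairs 0 members were lower, against 5.09% and 3.53% of genes. Cacna1h rested on 6 UMIs in DL-Foxp2. Not every member was low in DL-Foxp2, since Cacna1e (145.4 ± 12.5 CPM), Cacna1a (51.7 ± 10.5 CPM) and Cacna1d (30.7 ± 4.21 CPM) had means within or above the range of DL-Etv1. DL-Tshz2 had the lowest Cacna1e, at 50.8, 39.6, 52.9 and 54.2 CPM, with no overlap with SL-Cux2, the next subtype (93.2 ± 16.0 CPM). It also had the lowest Cacng3, at 44.4 ± 9.97 CPM, below all libraries of DL-Foxp2 (76.6 ± 22.3 CPM). The free RNA of the PFC held 46.4 to 69.6 CPM of Cacna1e and 44.0 to 93.5 CPM of Cacng3. These ranges included the DL-Tshz2 means and, for Cacng3, that of DL-Foxp2. The part of free RNA in these low levels was not tested. The highest Cacng3 was in SL-Myh7, at 379.1, 380.7, 263.9 and 318.1 CPM, above all libraries of all other subtypes. The alpha2delta paralog Cacna2d3 was at 1.15 CPM in DL-Foxp2 and 0.713 CPM (1 UMI) in DL-Tshz2. Apart from DL-Pou3f1, the other subtypes had means of 24.6 to 33.7 CPM. DL-Pou3f1 was at 46.7 ± 49.9 CPM, from 18 UMIs in 62 cells, with libraries at 0 to 117.5 CPM. Cacna1a had means of 44.2 to 51.7 CPM over the 7 subtypes, with overlapping ranges throughout.

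Likeness of pattern was measured over the means of the 18 tissue and cell type combinations with Pearson's r on log2(CPM + 1) among 8657 genes, as a description of points that share libraries and depth. Among the 3 genes closest to Cacng3 were Myt1l (r = 0.97) and Cplx2 (0.97), and among those closest to Cacna1e were Pianp (0.96) and Pak6 (0.96). Closest to Cacna2d1 were Itfg1 (0.97), Pclo (0.96) and Reps2 (0.95). Cacna1b was followed by Dmtn (0.95), Gria1 (0.95) and Hs6st2 (0.95), Cacna1i by Syt5 (0.95), Rasgef1a (0.95) and Rprml (0.95), and Cacna1a by Zc2hc1a (0.95), Klhl22 (0.94) and Fbxo11 (0.92). The L-type genes came with Tasp1 (0.93), Naa60 (0.92) and Gpr27 (0.92) for Cacna1c and B4galt6 (0.90), Osbpl6 (0.90) and Mboat7 (0.90) for Cacna1d. Among the T-type genes, Cacna1h came with Sh2b1 (0.91), Kctd17 (0.86) and Rarb (0.85) and Cacna1g with Flot1 (0.89), Fkbp1b (0.87) and Scai (0.86).

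To ask whether a heterozygous Setd1a mutation changed these genes, summed counts of 2 Setd1a+/- and 2 WT libraries were compared in each cell type with edgeR. None of the members passed the threshold (Benjamini-Hochberg adjusted p under 0.05 within a cell type, and over 1.5-fold in PFC or 2-fold in striatum) in 23 tests over PFC cell types (0% of 51145 gene tests), 47 tests over PFC excitatory subtypes (0% of 44783) or 46 tests over striatal cell types (0.00544% of 73479). At an unadjusted p under 0.05 there were 2 member tests in all, against 2.07% of all gene tests. DESeq2 also called 0 members, and the fit with the replicate as a block called 0, although over all genes that block raised the calls from 0 to 33, from 0 to 12 and from 4 to 83. In these fits the filter kept all 10 members in EN and striatal IN, 9 in each MSN type and 5 in PFC IN, and 0 in PFC astrocytes, microglia and newly formed oligodendrocytes (NFO) and in striatal NFO and neuroblasts (NB). The median log2 fold change of the members was 0.09 in PFC types, 0.10 in excitatory subtypes and 0.10 in striatal types, against −0.00115 to 0.0028 over all genes tested.

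The smallest unadjusted p was that of Cacna2d1 in striatal IN. It stood at 72.7 and 149.9 CPM in the Setd1a+/- libraries and at 61.3 and 62.5 CPM in the WT libraries. The groups did not overlap, and 1 Setd1a+/- library lay far above the other 3. The log2 fold change was 0.91 with a standard error of 0.28 (unadjusted p = 0.0055, adjusted p = 1.00), and it was 0.27 without Setd1a+/- replicate 2 and 1.32 without Setd1a+/- replicate 1, where it passed the threshold (adjusted p = 8.0e-04). Among the IN with a GABA marker and no excitatory marker it was 1.01 (adjusted p = 0.998). In the same Setd1a+/- replicate 2, Cacna2d1 was also the highest of the 4 striatal libraries in D1 MSN (95.8 CPM), microglia (89.6 CPM, 24 cells) and endothelial cells (38.2 CPM). That library was the highest in astrocytes, oligodendrocytes and NB too, but not in D2 MSN, OPC or NFO. The part of this library in the difference was not tested further.

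In PFC EN, the largest difference was that of Cacng3, at 165.7 and 181.9 CPM in Setd1a+/- and 132.5 and 131.5 CPM in WT libraries, a log2 fold change of 0.41 with a standard error of 0.18 (adjusted p = 1.00). Cacna1e was at 117.6 and 120.6 CPM in Setd1a+/- and 144.9 and 126.3 CPM in WT libraries (log2 fold change −0.17, standard error 0.17, adjusted p = 0.999). The genotype ranges did not overlap for 4 of 10 members in EN (23.6% of genes tested), 2 of 5 in PFC IN (29.5%), 3 of 9 in D1 MSN (29.3%), 3 of 9 in D2 MSN (30.5%) and 2 of 10 in striatal IN (29.7%). Cacna1b, among the non-overlapping genes, lay higher in Setd1a+/- libraries in EN and D2 MSN and lower in D1 MSN, with log2 fold changes of 0.18, 0.11 and −0.23. Among the subtypes, Cacna1g in DL-Nnat had a log2 fold change of −1.08 with a standard error of 0.45 (adjusted p = 1.00), from 12.1 and 16.2 CPM in Setd1a+/- and 21.4 and 34.9 CPM in WT libraries. The log2 fold change ranged from −1.37 to −0.57 on leaving out 1 library. None of these differences was detectable at this depth and with 2 libraries a genotype.

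**Figure D4:**
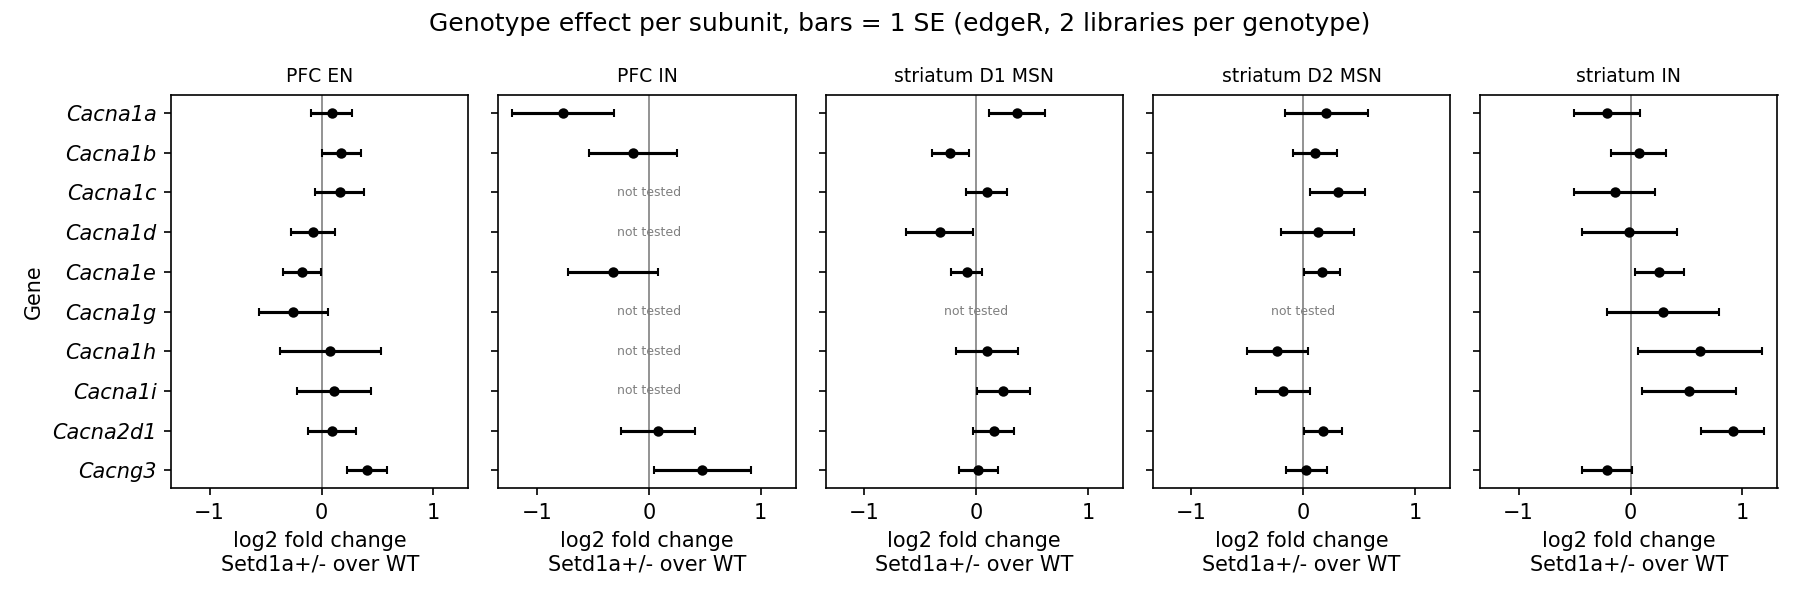
Log2 fold change of Setd1a+/- over WT (horizontal axes) with 1 standard error for each subunit gene (vertical axis) in 5 neuron types, from edgeR with 2 libraries per genotype; genes that did not pass the count filter are marked as not tested. In EN and both MSN types the estimates lie between −0.32 and 0.41, and the largest is Cacna2d1 in striatal IN, at 0.91.

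Of the 16 other subunits, 0 were called between genotypes in 111 tests, and of the 30 genes of calcium entry, release and extrusion, 0 in 425 tests. Whether the genotype effect differed between tissues was tested in the cell types found in both, and 0 of 24 member tests passed (0% of 49915 gene tests); 0 of these member tests had an unadjusted p under 0.05, and the smallest was 0.113.

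Levels in the cell types found in both tissues were compared between striatum and PFC over 4 libraries each, with genotype as a covariate. Higher in striatum were 5 of 24 member tests, and 0 were lower, with 5.85% of all gene tests called. The 5 were Cacna1e in IN, endothelial cells and microglia and Cacng3 in endothelial cells and microglia. The filter kept 8 members in IN, 6 in endothelial cells, 6 in OPC, 3 in microglia, 1 in oligodendrocytes and 0 in astrocytes and NFO. Tissue and dissection cannot be told apart in this design.

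In IN, Cacna1e was at 110.8, 81.1, 82.6 and 82.3 CPM in striatum and 31.1, 33.1, 42.9 and 37.8 CPM in PFC (both Setd1a+/- libraries before both WT libraries). It was the only member called in IN, with 4.63% of 8374 genes higher in striatum. The log2 fold change was 1.31 with a standard error of 0.21 (adjusted p = 5.8e-04). Among the IN with a GABA marker and no excitatory marker the call was lost, with 54.6 ± 11.3 CPM in striatum and 36.9 ± 5.25 CPM in PFC (log2 fold change 0.64, standard error 0.24, adjusted p = 0.117). Cacna2d1 went the other way. Over all IN it was at 86.6 ± 42.5 CPM in striatum and 140.1 ± 31.4 CPM in PFC (log2 fold change −0.70, standard error 0.25, adjusted p = 0.088), and without Setd1a+/- replicate 2 of the striatum it passed (−1.03, adjusted p = 0.0059). Among the restricted IN it was at 40.5 ± 19.5 and 134.3 ± 21.7 CPM, with no overlap, and passed the threshold (log2 fold change −1.71, standard error 0.26, adjusted p = 4.1e-04), as did 6.97% of 7661 genes in either direction. The free RNA differed between tissues in the same directions, with 100.2 to 148.8 CPM of Cacna2d1 in PFC and 48.7 to 88.7 CPM in striatum, and 46.4 to 69.6 CPM of Cacna1e in PFC and 88.1 to 117.5 CPM in striatum. Its part in these differences was not tested. In PFC IN the interneuron marker Vip was at 2722 CPM and in striatal IN at 98.1 CPM, and the part of interneuron classes in these differences was not tested. From the calcium gene lists, Atp2b4, a plasma membrane calcium pump, was higher in striatal IN (log2 fold change 3.02, adjusted p = 4.5e-05) and remained so among the restricted IN (2.56, adjusted p = 6.9e-04). Slc8a2, a sodium-calcium exchanger, Camk2a, a calmodulin-dependent kinase, and the beta subunit Cacnb3 were higher over all IN (2.24, 1.21 and 1.08) and lost their calls among the restricted IN, with log2 fold changes of 0.75, 0.80 and 0.70 (adjusted p = 0.344, 0.059 and 0.123).

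In microglia, Cacna1e was at 49.1, 59.8, 79.8 and 77.3 CPM in striatum and 30.4, 4.88, 0 and 10.8 CPM in PFC (log2 fold change 3.11, standard error 0.73, adjusted p = 0.011), with 12.2% of genes higher in striatum. The PFC values rest on 6 UMIs, and the log2 fold change was 3.96 without PFC Setd1a+/- replicate 1 and 2.08 without PFC WT replicate 1. Cacng3 was at 22.3 to 60.1 CPM in striatal and 0 to 4.88 CPM in PFC microglia and passed the threshold (adjusted p = 0.0067), but it had 1 UMI in all PFC microglia against 34 in striatum. Of the 10 members, 3 passed the count filter in this test, and 0 did in PFC microglia alone. The microglia calls thus rest on genes kept through their striatal counts, which favors calls higher in striatum. The ratio of the summed counts per total was 47.0, with an exact 95% interval of 7.88 to 1909 that covers counting error only. The fitted log2 fold change of 4.73 (standard error 0.98) became 6.49 without PFC Setd1a+/- replicate 2 and 3.70 without PFC WT replicate 1. In endothelial cells, Cacna1e was at 19.6 ± 5.92 CPM in striatum and 4.99 ± 1.52 CPM in PFC (log2 fold change 1.94, standard error 0.36, adjusted p = 0.0066). Cacng3 was at 11.2 ± 3.75 and 1.97 ± 1.67 CPM (log2 fold change 2.91, standard error 0.68, adjusted p = 0.021), with 5.29% of genes higher. In PFC endothelial cells they had 22 and 6 UMIs, with at most 6.63 and 3.98 CPM in a library. They too were kept by the filter through their striatal counts, which favors calls higher in striatum. Without striatal WT replicate 2 the calls of Cacng3 in endothelial cells (adjusted p = 0.111) and of Cacna1e in microglia (adjusted p = 0.051) were lost, and without PFC WT replicate 1 that of Cacng3 in endothelial cells (log2 fold change 2.00, adjusted p = 0.095). That fold change was 3.58 without PFC WT replicate 2. Of the other subunits, 4 of 6 tested were called higher in striatal endothelial cells (5.29% of genes) and 1 of 1 in microglia (12.2%). The endothelial ones were Cacnb4 and, with 1, 0 and 1 UMIs in PFC, Cacng4, Cacna2d3 and Cacna2d2. Of the calcium-handling genes, 3 of 22 were higher in endothelial cells, and 8 of 11 were higher and 1 lower in microglia. Cacnb4, Camk2b and Atp2b2 were higher in both types. Markers of MSN were also higher in these striatal types. All 7 MSN markers were detected in both striatal types, and they summed to 1736 to 2734 CPM in striatal microglia and 279.3 to 879.5 CPM in striatal endothelial cells, against 4.88 to 27.0 and 25.5 to 29.6 CPM in PFC, where 2 and 3 of them were at 0. The summed MSN markers were higher in other striatal types too. Astrocytes held 288.4 to 1094 CPM (PFC, 17.1 to 40.7 CPM) and OPC 277.6 to 502.5 CPM (PFC, 66.5 to 84.9 CPM). Oligodendrocytes held 167.4 to 818.3 CPM (PFC, 4.28 to 29.3 CPM) and NFO 87.4 to 973.6 CPM (PFC, 2.98 to 44.8 CPM). A restriction of microglia and endothelial cells to those without a UMI of an MSN marker, also chosen after seeing the data, was uneven between tissues. It left 118 of 271 microglia and 1098 of 1998 endothelial cells in striatum, and 471 of 482 and 1443 of 1562 in PFC. Cacna1e was then at a mean of 26.3 CPM (0 to 57.6 CPM, 5 UMIs) in striatal microglia and 7.65 CPM in striatal endothelial cells. Such PFC cells held 12.1 CPM (0 to 32.0 CPM, 6 UMIs) and 5.04 CPM. Cacng3 was then at 3.23 CPM (1 UMI) in striatal microglia and 4.95 CPM in striatal endothelial cells, against 1.25 CPM (1 UMI) and 2.14 CPM in such PFC cells. The part of MSN RNA in these calls was not tested. Between tissues, 0 of 6 members tested in OPC and 0 of 1 in oligodendrocytes were called. The share of 5.85% of gene tests is pooled over all shared types and both directions. Within these types, 0 of 8 and 0 of 3 other subunits and 0 of 21 and 0 of 15 calcium-handling genes were called. In astrocytes and NFO 0 members were tested. In astrocytes 1 of 2 other subunits, Cacna2d3 (0 UMIs in PFC astrocytes), was called higher in striatum. So were 4 of 16 calcium-handling genes, among them Atp2a2, Atp2b1 and Camk2b. Cacna1e in OPC was at 30.7 to 32.1 CPM in striatum and 26.1 to 50.9 CPM in PFC.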

How the data were processed

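The deposited count matrices, 1 per library, hold UMI counts per gene and cell barcode, which the authors made with Cell Ranger 3.0.2 on mm10 (tools and builds per the labels) and filtered and clustered with Seurat 3.2.0. Cell types and excitatory subtypes came from the deposited annotation, in which every cell had 800 or more genes and no cell exceeded 10% mitochondrial UMIs; no further filter or doublet call was applied. A deposited expression table whose gene column holds row numbers was not used. UMIs were summed per library and cell type (at least 10 cells in each library, which left DL-Pou3f1 untested) and given as CPM. Tests used edgeR 4.0.16 (quasi-likelihood, TMM, filterByExpr with a minimum count of 10, adjustment over all genes of a cell type), with DESeq2 1.42.0 as an alternative. With 2 libraries per genotype, an exact permutation test could not reach p < 0.05. The edgeR script was also run on data simulated from these counts, and the outcome is not reported here. Cell type pairs had a pseudocount of 1 CPM and a minimum of 20 UMIs. Thinning drew 1000 UMIs per cell. Shares of cells and counts carry counting error only.

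The members and gene lists were chosen with earlier results of these data known. All 10 members are named, with the 6 other subunits that have the most UMIs, list genes past a threshold (up to 3 per comparison among calcium-handling genes) and 3 genes of like pattern per member, of which some are not reported here. Per the study's methods, a replicate number joins 1 WT with 1 Setd1a+/- library. The deviations of same-numbered libraries correlated across genes with r of 0.117 to 0.599 in PFC types and 0.0969 to 0.395 in striatal types. Gene positions came from the GENCODE vM21 annotation of GRCm38.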

Additional observations from a re-analysis of the deposited data

How the results depend on the processing

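The number of members called between genotypes stayed at 0 in PFC cell types and excitatory subtypes under all alternatives, and the member calls for a genotype effect that differs between tissues stayed at 0. In striatal cell types it was 0 to 1 on leaving out libraries, the 1 without Setd1a+/- replicate 1. Over all genes, genotype calls moved from 0 to 33 in PFC types, from 0 to 12 in excitatory subtypes and from 4 to 83 in striatal types with the replicate block, from 0 to 63, 28 and 110 (from 4) with every gene of at least 1 UMI, and from 0 to 1 in PFC types with DESeq2. Leaving out libraries gave 16 to 69, 7 to 227 and 70 to 403 calls, and 0 to 4 calls for a difference of effects between tissues, which was 26 with every gene of at least 1 UMI. Between tissues, members called moved from 5 to 11 and all genes from 2919 to 5538 with every gene of at least 1 UMI, and members to 3 without striatal WT replicate 2 (3 to 6 over libraries left out). The replicate block changed no other call of a named result. With restricted IN there were again 5 member calls, with Cacna2d1 in place of Cacna1e in IN and the other 4 in endothelial cells and microglia, which the restriction leaves as they were. In MSN against striatal IN, the member differences went from 1 higher and 1 lower (6.64% and 9.84% of genes) to 3 higher and 1 lower with that restriction. The shares over all genes were then 9.12% and 8.96% of 13187. Pair counts under other settings are not reported here. Where a library left out leaves 1 in its group, that library is assumed to vary like the others. The causes were not tested. Of 250 mean levels, 11 moved by more than 1 SD as means over cells and 24 without mitochondrial and ribosomal protein genes in the total. Shares of cells moved in 159 of 250 on thinning. Thinning can only lower a share, so that count does not check differences between types. Depth limits the low-count members Cacna1g and Cacna1h most.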
